A study of Drosophila melanogaster with 9 samples.

Results

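The 458 peaks described here are sites at which CP190 was listed in embryos of both the Pita ΔCP1+2 and the Pita wt line while FLAG-tagged Pita was listed in neither. They were chosen by the positions of peak summits alone, each extended by 250 bp to both sides. A peak of the Pita wt CP190 list was taken when its window shared at least 1 bp with a window of the Pita ΔCP1+2 CP190 list and none with a FLAG window of either line. They are 458 of 6586 Pita wt CP190 peaks, or 6.95%, and 9.26% of the 4946 that also had a CP190 window in the mutant line. Their presence in the CP190 lists and absence from the FLAG lists is therefore the rule and not a result.

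CP190 is a BTB-domain zinc-finger protein of Drosophila insulators. It is brought to DNA largely by other proteins that read the sequence, among them dCTCF, Su(Hw), BEAF-32, Ibf factors and the zinc-finger protein Pita. Sites with a CP190 peak and no FLAG peak are therefore described here by the sequence words of these other proteins, by their position relative to genes and by the strength of the CP190 peak.

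The Pita ΔCP1+2 line expresses 3×FLAG-tagged Pita that lacks both regions through which it contacts the BTB domain of CP190. The Pita wt line expresses the tagged wild-type protein. Both transgenes are driven by the Ubi-p63E promoter from the same landing site on the third chromosome, and the labels give Oregon-R as the strain. The study describes crossing both transgenes into a pita mutant background, but the labels of these embryos do not give it, so that a site without FLAG cannot be told apart from a site bound by untagged Pita. Whole embryos from a 0 to 12 h collection were used according to the labels, whereas the methods name a later window. ChIP-seq was done with 2 biological replicates per antibody and line, and 1 preimmune sample of Pita wt served as the control for all 4 lists.

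Each list pools its replicates. No spread between replicates, and no read depth, stands behind the values below, and no test between the lines was made. Each fold enrichment is the authors' ratio of ChIP over preimmune signal, and each −log10 p is their peak caller's value. Ranks by fold enrichment within a list were used to set the lines side by side, as a percentile in which the strongest peak lies near 0. Intervals after shares are 95% Wilson intervals over peaks. They cover counting error only, since peaks of a list are not replicates.

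The CP190 lists held 8429 peaks in Pita ΔCP1+2 and 6586 in Pita wt, and the FLAG lists held 7365 in Pita ΔCP1+2 and 6901 in Pita wt. Over all Pita wt CP190 peaks, 75.1% had a CP190 window in the mutant line and 19.1% had no FLAG window in either line. The 458 peaks had 458 different partners in the mutant list. They were spread over X (90 peaks), 2L (75), 2R (95), 3L (84), 3R (112) and 4 (2), and made up between 6.62% and 7.53% of the CP190 peaks of each large arm. On chromosome 4 they were 2 of 12 (16.7%, interval 4.70 to 44.8%).

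Most of the 458 were weak, but 14 were not. The median fold enrichment was 1.98 in Pita ΔCP1+2 and 1.93 in Pita wt, with median percentiles of 63.2 in Pita ΔCP1+2 and 70.6 in Pita wt. For CP190 peaks with FLAG in both lines these percentiles were 27.0 in Pita ΔCP1+2 and 37.7 in Pita wt. The 797 CP190 peaks without FLAG that were listed in Pita wt alone were about as weak as the 458. Their median Pita wt percentile was 66.7 and their median Pita wt fold enrichment 1.96. In Pita wt the fold enrichments left a gap between 3.58 and 2.86. Above it stood 14 peaks with values of 3.58 to 9.63, called strong here, and below it 444 with values of 1.42 to 2.86. The limit of 3 was set after these values were seen, and 4.65% of all Pita wt CP190 peaks passed it. The 14 are 3.06% of the 458, no larger a share than over the whole list. By Pita wt rank, 10 of the first 100 CP190 peaks belonged to the 458 (interval 5.52 to 17.4%, which holds the overall 6.95%), 4 of the 100 ranked 101 to 200, 2 of the 303 ranked 201 to 500 and 279 of the 2584 ranked past 4000 (10.8%).

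**Figure D1:**
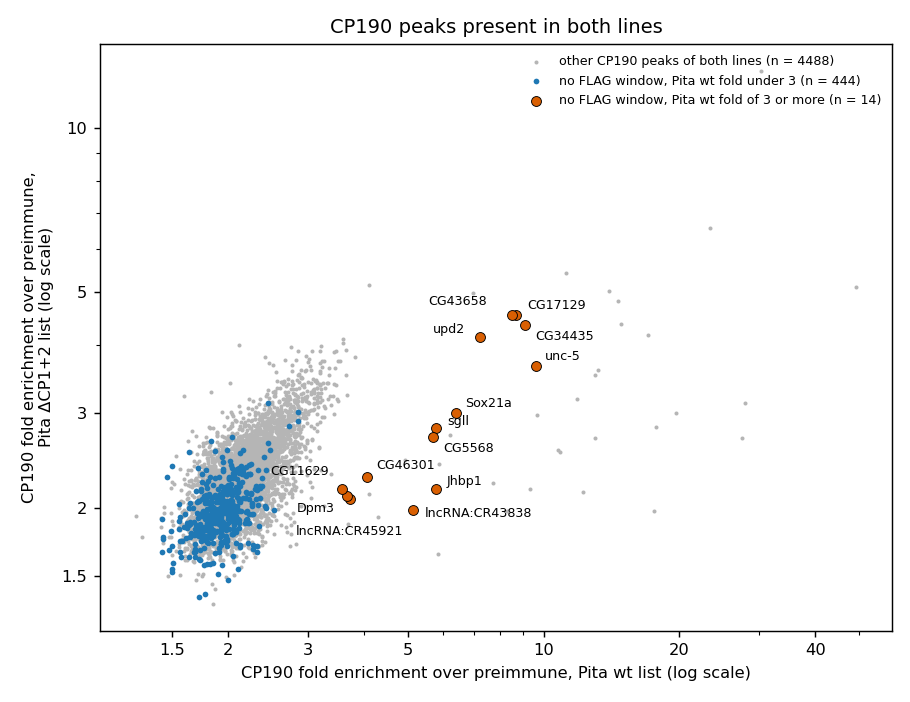
CP190 fold enrichment over the preimmune sample in the Pita ΔCP1+2 list (vertical, log scale) against the Pita wt list (horizontal, log scale) for CP190 peaks present in both lines. The 14 strong peaks without FLAG (orange, named by the nearest start) stand apart from the 444 others (blue) on the Pita wt axis, by which they were divided. On the Pita ΔCP1+2 axis they overlap, with 1.99 to 4.55 for the 14 and 1.37 to 3.13 for the 444. The 4488 remaining shared peaks are grey.

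The 14 strong peaks were read for short words of DNA-binding proteins within 250 bp of the summit, on both strands of dm6, in the copy held by RefSeq. The dCTCF core was searched as AGNNGGCGC, where N is any base. It was found in 8 of the 14, with 10 matches. The stretches below show each match with 16 bases on either side, 5′ to 3′ on the strand on which the core reads forward. The core is in capitals. They are shown because 9 of the 10 cores share a T at the same place although the search allowed any base there.

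CG43658 (chrX:17532007-17532047, minus strand): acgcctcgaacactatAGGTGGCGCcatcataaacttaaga
upd2 (chrX:18239523-18239563, plus strand): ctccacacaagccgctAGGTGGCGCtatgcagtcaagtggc
Sox21a (chr3L:14111517-14111557, minus strand): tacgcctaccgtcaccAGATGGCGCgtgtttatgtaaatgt
Sox21a (chr3L:14111628-14111668, plus strand): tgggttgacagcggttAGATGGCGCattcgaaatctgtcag
sgll (chr3R:7810410-7810450, minus strand): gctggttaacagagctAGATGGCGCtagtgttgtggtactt
Jhbp1 (chr3R:4970770-4970810, plus strand): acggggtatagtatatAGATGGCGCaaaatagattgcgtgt
Jhbp1 (chr3R:4970798-4970838, plus strand): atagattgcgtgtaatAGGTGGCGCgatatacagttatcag
lncRNA:CR43838 (chrX:20760520-20760560, plus strand): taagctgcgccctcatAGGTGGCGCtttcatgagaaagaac
lncRNA:CR45921 (chr3L:17988329-17988369, plus strand): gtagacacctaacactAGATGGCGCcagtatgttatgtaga
Dpm3 (chr3R:13403460-13403500, minus strand): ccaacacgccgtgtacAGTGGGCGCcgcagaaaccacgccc

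Of these cores, 4 read AGGTGGCGC and 5 read AGATGGCGC, and that of Dpm3 reads AGTGGGCGC. CG43658, upd2, the second core of Sox21a, lncRNA:CR43838 and lncRNA:CR45921 had the centre of a core 20, 11, 16, 20 and 17 bp from the summit. The first core of Sox21a lay 95 bp from its summit, that of sgll 51 bp, those of Jhbp1 79 and 51 bp, and that of Dpm3 200 bp. A core thus lay close to the point of highest CP190 signal in 5 of the 8 peaks, and farther off in the other 3.

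Words of other proteins stood in some of the strong windows, with or without a dCTCF core. They are printed next on the plus strand, with the words in capitals. The upd2 stretch holds 2 copies of the Su(Hw) core GCATACTT, with centres at -97 and -66 bp from the summit. Those of lncRNA:CR43838 (183 and 191 bp) and Dpm3 (-187 and -167 bp) hold the DRE, TATCGATA, read by DREF and containing the BEAF-32 word CGATA. CG17129 (-130 to -126 bp) and CG11629 (120 to 138 bp) hold GAGA repeats, GAGAGAG on either strand, read by GAGA factor. A Su(Hw) core of lncRNA:CR45921, not printed here, lay at -40 bp.

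upd2 (chrX:18239419-18239481, plus strand): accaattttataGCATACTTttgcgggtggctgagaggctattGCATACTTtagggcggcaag
lncRNA:CR43838 (chrX:20760727-20760782, plus strand): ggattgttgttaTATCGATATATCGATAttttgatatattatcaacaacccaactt
Dpm3 (chr3R:13403077-13403132, plus strand): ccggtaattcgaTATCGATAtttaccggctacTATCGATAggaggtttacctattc
CG17129 (chr3L:673405-673456, plus strand): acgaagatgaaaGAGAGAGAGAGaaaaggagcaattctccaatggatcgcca
CG11629 (chr2L:21899463-21899514, plus strand): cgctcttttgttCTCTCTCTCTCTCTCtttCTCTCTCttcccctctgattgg

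The remaining strong peaks had fewer of these words. The windows at CG34435 and CG46301 held no dCTCF core, Su(Hw) core, DRE or GAGA repeat, and the same was true of that at unc-5, 3 of 14 in all. The window at CG5568 had a Su(Hw) core 145 bp from its summit. For these summits 50 bases on each side are printed on the plus strand. In capitals is AGNTGGCG, a shorter form of the dCTCF core that was chosen after the sequences of the strong peaks had been read.

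CG5568 (chr3L:5869733-5869833, plus strand): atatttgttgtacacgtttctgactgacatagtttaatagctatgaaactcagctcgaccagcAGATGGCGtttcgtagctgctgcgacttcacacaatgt
CG34435 (chrX:5613175-5613275, plus strand): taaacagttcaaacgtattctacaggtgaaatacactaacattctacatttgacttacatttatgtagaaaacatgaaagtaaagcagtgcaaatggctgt
CG46301 (chr2L:14094736-14094836, plus strand): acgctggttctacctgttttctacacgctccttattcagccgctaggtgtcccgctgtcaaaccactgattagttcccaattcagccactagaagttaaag

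The shorter word lay within 50 bp of the summit in 8 of the 14 strong peaks (57.1%, interval 32.6 to 78.6%). These were CG43658, upd2, Sox21a, sgll, Jhbp1, CG5568, lncRNA:CR43838 and lncRNA:CR45921. Over all Pita wt CP190 windows on assembled chromosomes the share was 4.55%. It was 5.54% (16 of 289) among the other Pita wt CP190 peaks of fold enrichment 3 or more on these chromosomes. The word was derived from these 14 peaks, so that its share among them describes them and cannot be read as a test.

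The full dCTCF core stood in a like order. It was present in 57.1% of the strong peaks (interval 32.6 to 78.6%), in 14.0% of the 444 weaker ones (62 peaks, interval 11.05 to 17.5%) and in 17.6% of the other strong CP190 peaks (51 of 289, interval 13.7 to 22.5%). Among these it was in 12 of the 51 strong peaks without FLAG that were listed in Pita wt alone (23.5%, interval 14.0 to 36.8%), which overlaps the interval of the 14, and in 29 of the 120 with CP190 and FLAG in both lines (24.2%). Over all 458 the count was 70, or 15.3%, against 15% of all Pita wt CP190 windows. Within 50 bp of the summit the core occurred in 5 of the 14 strong peaks and 17 of the 444 others, 22 in all (4.803%), against 4.75% of all windows. Windows 5 kb to each side of the 458 held it in 6.22%.

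**Figure D2:**
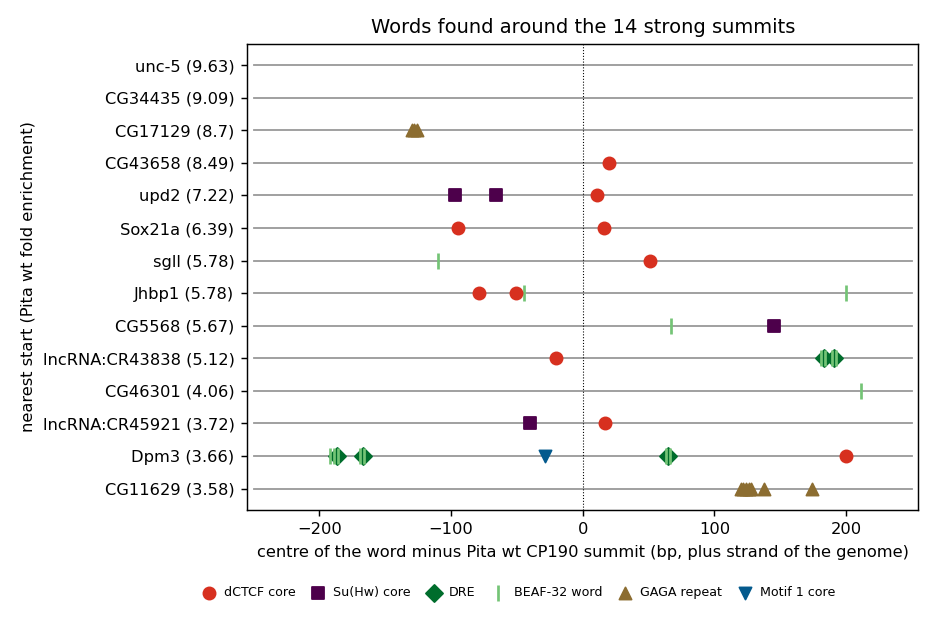
Positions of 6 words relative to the Pita wt CP190 summit (0 on the horizontal axis, in bp) in the 14 strong windows, ordered by Pita wt fold enrichment, which is given after each name. Red circles mark dCTCF cores, which lie within 20 bp of the summit in 5 windows.

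No match of the Pita matrix, the binding preference of Pita itself, was found at the strong peaks. At a p-value threshold of 0.0001 for the matrix it matched 0 of 14 (interval 0 to 21.5%), against 164 of 289 other strong CP190 peaks (56.7%, interval 50.98 to 62.3%). At 1e-06 it matched 0 of 14, against 75 of 289 (26.0%). Among the strong CP190 peaks with CP190 and FLAG in both lines it matched 33 of 120 at 0.0001 (27.5%, interval 20.3 to 36.1%), an interval that overlaps that of the 14. Among the strong CP190 peaks that had no FLAG either but were listed in Pita wt alone, it matched 27 of 51 at 0.0001 (52.9%, interval 39.5 to 65.9%). Among strong CP190 peaks without FLAG the share of Pita matches was thus lower where CP190 was listed in the mutant line too. No such difference was tested, and the intervals rest on few windows.

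Over all 458, the Pita matrix matched 40 windows at 0.0001 (8.73%), against 13.8% of all Pita wt CP190 windows and 7.21% of windows 5 kb away. At 1e-06 it matched 2 windows (0.44%), against 2.04%. One of these lay in the coding exon of Lrpprc2 on X, with a fold enrichment of 1.95 in Pita ΔCP1+2 and 2.04 in Pita wt, and its match lay 217 bp from the summit. It is printed with the 21 matched positions in capitals.

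Lrpprc2 (chrX:1459709-1459749, plus strand): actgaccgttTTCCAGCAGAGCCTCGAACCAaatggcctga

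The other match lay in an intergenic window near Polr2E, a subunit gene shared by the RNA polymerases, 27 bp from the summit. Its fold enrichment was 2.22 in Pita ΔCP1+2 and 1.79 in Pita wt. Its CP190 summits of the lines were 484 bp apart, so that it was among the 3 least well aligned of the 458.

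Most other words were close to the background over the 458. The Su(Hw) core was in 8 windows (1.75%, against 1.26% of all Pita wt CP190 windows), and 3 of these were strong: upd2, CG5568 and lncRNA:CR45921. The DRE was in 4 (0.87%, against 0.853%), of which 2 were strong. The GAGA repeat was in 19 (4.15%, against 4.37%), and the short BEAF-32 word CGATA was in 189 (41.3%, against 40%). The core of Motif 1, GGTCACAC, a promoter word bound by M1BP, was in 3 windows (0.66%, interval 0.22 to 1.91%, against 2.09%). Windows with CP190 and FLAG in both lines held it in 1.64%, which lies inside that interval. The strong windows outside the 458 held it in 12.8%. Of the 14 strong windows 1 held it, that near Dpm3 (7.14%, interval 1.27 to 31.5%), an interval that holds the 12.8%.

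The E-box CAGCTG was in 168 windows (36.7%, against 37.4%) and the Zelda word CAGGTAG, bound by the early activator Zelda, was in 22 (4.803%, against 4.92%). The Insensitive palindrome CCAATTGG was in 4 (0.87%, against 0.99%). The TATA box TATAAA was in 63 (13.8%, against 12.3%), and in 42.6% of the more AT-rich windows 5 kb away. These shares were close to those of the list as a whole.

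**Figure D3:**
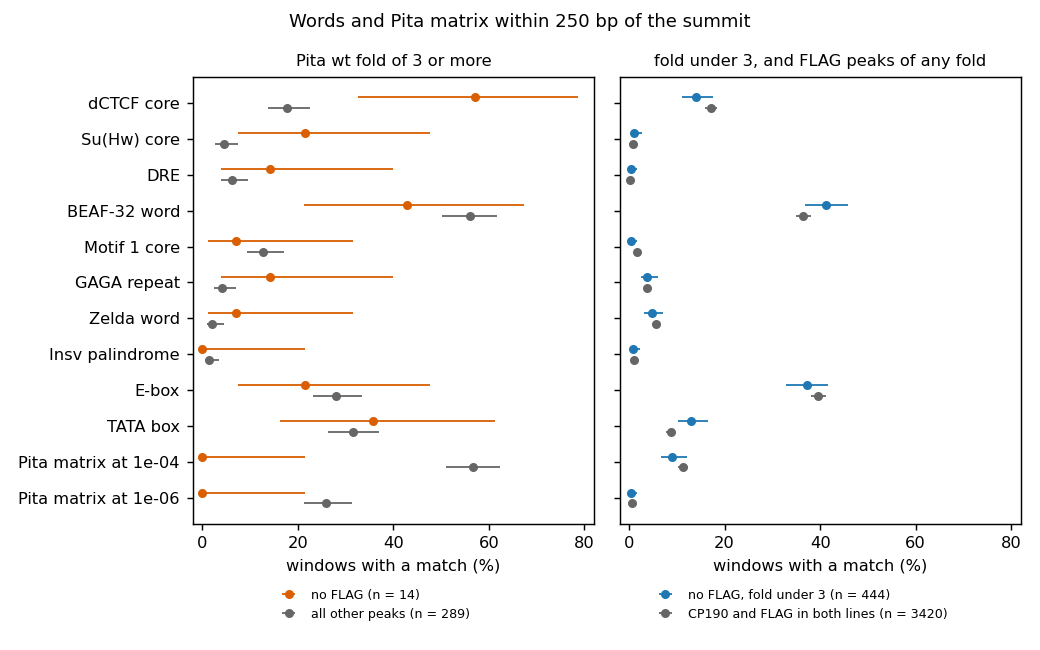
Share of windows with each word or Pita matrix match (points) and 95% Wilson interval (bars). Left, the 14 strong peaks without FLAG and the 289 other Pita wt CP190 peaks of fold enrichment 3 or more; right, the 444 weaker peaks without FLAG and the 3420 with CP190 and FLAG in both lines. The dCTCF core was in 57.1% of the 14 and the Pita matrix in 0.

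The strongest of the 14 in Pita wt lay at chr2R:15339474-15339950 (dm6), an intergenic position 737 bp from the nearest start, that of unc-5, a netrin receptor of axon guidance. It ranked 46 of 8429 in Pita ΔCP1+2 and 37 of 6586 in Pita wt, with a fold enrichment of 3.66 in Pita ΔCP1+2 and 9.63 in Pita wt. The peaks near CG34435, at chrX:5612926-5614242, CG17129, at chr3L:672763-673772, and CG43658, in an intron on X, had 4.35, 4.54 and 4.55 in Pita ΔCP1+2, against 9.09, 8.70 and 8.49 in Pita wt. The peak 3752 bp from upd2, a cytokine ligand of the JAK/STAT pathway, had 4.14 in Pita ΔCP1+2 and 7.22 in Pita wt. These 5 peaks ranked 46, 16, 14, 13 and 18 in the mutant list, against 37, 42, 47, 50 and 60 in Pita wt. They were the only strong ones ranked 50 or better there, and all 5 had a smaller percentile in Pita ΔCP1+2 than in Pita wt. The mutant list was the longer, so that an equal rank gave a smaller percentile in it. At unc-5 the rank was worse in the mutant list, and the percentiles differed by only -0.016 points.

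The other 9 strong peaks had a larger percentile in Pita ΔCP1+2. The peaks near Sox21a, an HMG-box transcription factor gene, near sgll and near CG5568 kept ranks of 275, 472 and 649 in the mutant list, with fold enrichments of 3.00, 2.81 and 2.70, against 6.39, 5.78 and 5.67 in Pita wt. The last 6 ranked past 2000 in the mutant list. Jhbp1, a juvenile hormone binding protein gene, ranked 3119 in Pita ΔCP1+2 and 79 in Pita wt, and lncRNA:CR43838 ranked 5146 in Pita ΔCP1+2 and 91 in Pita wt. CG46301, lncRNA:CR45921, Dpm3, a subunit gene of dolichol-phosphate mannose synthase, and CG11629 ranked 2281, 4128, 3781 and 3162 in Pita ΔCP1+2, against 136, 151, 157 and 165 in Pita wt. The fold enrichments of these 6 were between 1.99 and 2.29 in Pita ΔCP1+2, against 3.58 to 5.78 in Pita wt. Such falls were not confined to peaks without FLAG. The largest value of the whole CP190 list was 12.8 in Pita ΔCP1+2 and 49.4 in Pita wt, with medians of 2.07 in both. The peak with 49.4, which had FLAG in both lines, had 5.10 in Pita ΔCP1+2. Over all 122 strong peaks with CP190 and FLAG in both lines the medians were 3.25 in Pita ΔCP1+2 and 3.20 in Pita wt. Most of these 122 lay close to the limit of 3, with an upper quartile of 3.50 in Pita wt. The 14 had medians of 2.76 in Pita ΔCP1+2 and 5.78 in Pita wt, so that the 2 sets were not of equal strength. The 14 were also chosen by their Pita wt value alone, and lower values in the mutant list follow in part from that choice. Whether the falls differed between these sets was not tested.

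The dCTCF core did not follow this split. It was present in CG43658 and upd2 of the first 5, in Sox21a and sgll of the middle 3, and in Jhbp1, lncRNA:CR43838, lncRNA:CR45921 and Dpm3 of the last 6. The summits of the strong peaks nearly coincided in the lines whatever the rank, 2 to 67 bp apart with a median of 10.5 bp. Among the 444 others the median was 30 bp and the largest distance 491 bp.

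The authors' irreproducible discovery rate pipeline, which keeps peaks that rank alike in separate peak sets, also left the values by which it ranked a peak in each of the 2 sets it compared, on the scale of −log10 p. Which sets these were is not stated, so that they cannot be read as replicate values. At unc-5 they were 19.9 and 14.8 in Pita ΔCP1+2, against 108 and 106 in Pita wt. At upd2 they were 31.7 and 15.6 in Pita ΔCP1+2, against 56.6 and 75.3 in Pita wt, and at lncRNA:CR43838 they were 3.74 and 4.42 in Pita ΔCP1+2, against 32.6 and 42.2 in Pita wt. These 3 peaks are given as examples only. How close the 2 values of a list lie to each other says nothing about replicates while the sets are unknown. Over all 14 strong peaks the largest value was 38.6 in Pita ΔCP1+2 and the smallest was 15.6 in Pita wt. The ranges of the lists thus overlapped. All 14 strong peaks reached the limit of 5 that the pipeline puts on its −log10 rate in Pita wt, and 5 did so in Pita ΔCP1+2.

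Strong and weak peaks lay in different kinds of sequence. Of the 14 strong summits 11 were intergenic, 2 were in introns and 1 was in a non-coding exon, of lncRNA:CR43838. None was in a coding exon (interval 0 to 21.5%). Of the 444 weaker summits 340 were in coding exons (76.6%, interval 72.4 to 80.3%), 37 in introns, 34 intergenic, 14 each in 5′ and 3′ UTRs and 5 in non-coding exons. Over the 458 the coding share was 74.2%, against 72.6% of all Pita wt CP190 summits, which lies inside the interval of the 458 (70.04 to 78.03%).

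The base composition split in the same way. The 500-bp windows of the strong peaks held 32.8 to 46.6% G and C, with a median of 38.0%. Those of the weaker peaks held 41.8 to 67.6%, with a median of 55.3%, and 11 of the 444 were at or below the highest strong value. Coding bases of the assembled chromosomes held 53.3% and other bases 39.9%, so that each group was near the composition of the sequence class in which most of it lay. Coding bases made up 17.1% of these chromosomes, and windows 5 kb from the 458 had their centre in a coding exon in 27.8%.

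**Figure D4:**
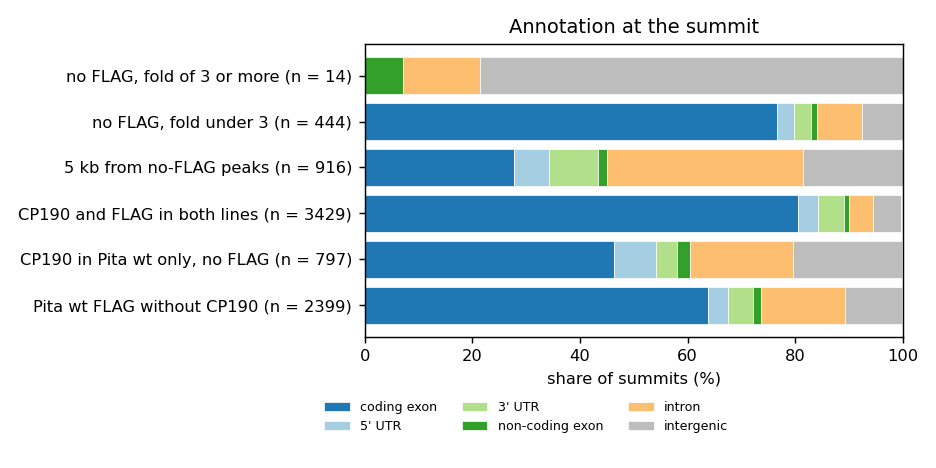
Annotation at the summit (share of summits in percent, horizontal) for the strong and weaker peaks without FLAG, for windows 5 kb from them and for 3 other sets of peaks. The coding-exon share is 0 for the 14 strong peaks, 76.6% for the 444 weaker ones and 80.6% for peaks with CP190 and FLAG in both lines.

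Coding exons were also rare among all Pita wt CP190 peaks at the ranks that the 14 held, 37 to 165. They held 5% of the summits ranked 1 to 100 and 21% of those ranked 101 to 200, with median G and C contents of 40.7 and 41.9%, against 65.7% of the summits ranked 201 to 500 and 59.4% G and C. Of the strong CP190 peaks with FLAG in both lines 85 of 122 lay in coding exons (69.7%, interval 61.0 to 77.1%), and the median G and C content of their windows was 59.6%. The median Pita wt fold enrichment was 5.78 for the 14 and 3.20 for these 122, so that the sets were not of equal strength. Of the strong CP190 peaks found in Pita wt alone and without FLAG 1 of 51 did (1.96%, interval 0.35 to 10.3%), with a median of 36.2%. The 14 strong peaks resembled this last set in composition and in the rarity of coding exons, but less in their distance to starts. The median distance to the nearest start was 1480 bp for the 14 and 413 bp for the 51. Within 500 bp of a transcript start lay 3 of the 14 (21.4%, interval 7.57 to 47.6%) and 28 of those 51 (54.9%, interval 41.4 to 67.7%). These intervals overlap, and the difference was not tested.

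**Figure D5:**
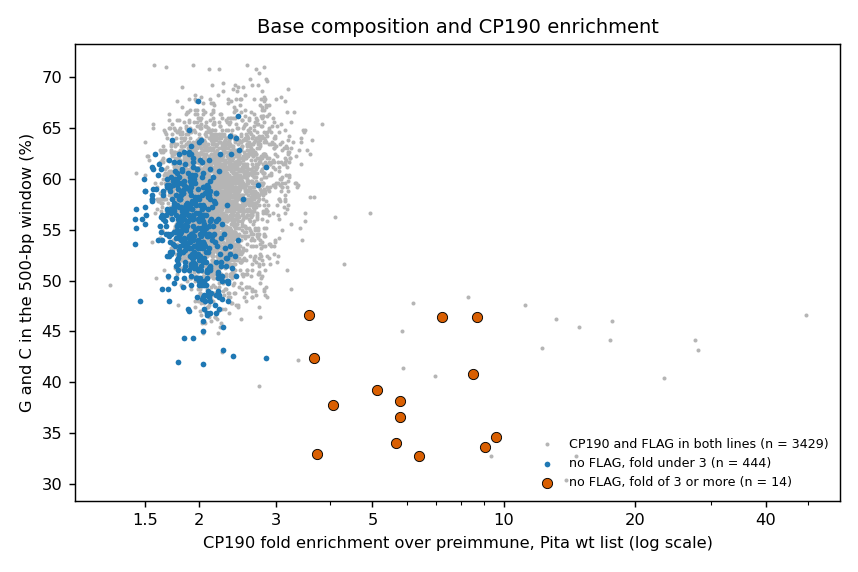
G and C content of the 500-bp window (vertical, percent) against Pita wt CP190 fold enrichment (horizontal, log scale). The 14 strong peaks without FLAG (orange) lie between 32.8 and 46.6%, and the 444 weaker ones (blue) have a median of 55.3%.

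Promoter peaks were a minority of the 458. The summit lay within 500 bp of an annotated transcript start in 89 (19.4%, interval 16.1 to 23.3%), against 20.9% of all Pita wt CP190 peaks. The median distance to the nearest start was 1439 bp, against 1525 bp for the other CP190 peaks. Of the strong peaks those near sgll (153 bp), Dpm3 (229 bp) and lncRNA:CR43838 (393 bp) lay within 500 bp of a start.

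The weaker peaks in coding exons were spread over many genes. Summits lay in a coding exon of 347 genes, and 9 of these held 2 summits each: CCT4, CG11122, CG31678, CG43897, HERC2, Mgat2, SLO2, Tm1 and kis. CCT4 encodes a chaperonin subunit, Tm1 a tropomyosin and kis a chromatin remodeller. The exon at the summit had a median length of 763 bp, against 700 bp for peaks with CP190 and FLAG in both lines. The weaker peak nearest the limit of 3 had a fold enrichment of 2.90 in Pita ΔCP1+2 and 2.86 in Pita wt. The best ranked in the mutant list lay in a coding exon of CG2186 and had 3.13 in Pita ΔCP1+2 and 2.45 in Pita wt. The 61 bases around the CG2186 summit are printed on the plus strand for comparison with the strong peaks, and hold none of the words printed in capitals above.

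CG2186 (chrX:10860010-10860070, plus strand): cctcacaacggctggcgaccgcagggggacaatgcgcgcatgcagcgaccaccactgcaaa

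A few other weak peaks were also among the best ranked in the mutant list. An intergenic peak on X at 23438605-23438807, 99577 bp from the nearest annotated start, that of mir-10404-5, had 3.01 in Pita ΔCP1+2 and 2.85 in Pita wt. A peak in the coding exon of alphaTry, a trypsin gene, had 2.84 in Pita ΔCP1+2 and 2.73 in Pita wt. A peak in a 3′ UTR near CG9175 had 2.71 in Pita ΔCP1+2, where it ranked 639, and 2.04 in Pita wt, where it ranked 3578.

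Within the 458 the percentile in Pita ΔCP1+2 was smaller than in Pita wt at 278 peaks and larger at 180. Part of this follows from the longer mutant list, in which an equal rank gave a smaller percentile. The median difference, Pita ΔCP1+2 minus Pita wt, was -5.56 points, and for peaks with CP190 and FLAG in both lines it was -7.22. Spearman's rho between the lines was 0.46 across the 458 peaks and 0.61 across those 3429, as a description over peaks that share their libraries and their control. Across the 444 weaker peaks alone rho was 0.42. Their Pita wt fold enrichments spanned only 1.42 to 2.86, against 1.25 to 49.4 for those 3429. The order of the weaker peaks was thus only loosely kept between the lists, within a narrow range of values.

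The largest gains in percentile lay among the 444 weaker peaks, since the strong ones were already near 0 in Pita wt. CG8004 ranked 1087 in Pita ΔCP1+2 and 6396 in Pita wt, a difference of -84.2 points. Peaks near CG12316 (-79.5), in a coding exon of Pdi, in CG10959 (-75.1) and near SmydA-2 (-73.5), in a coding exon of the Wnt antagonist gene nkd, followed, and a peak in an intron near Sema2a, a secreted axon guidance ligand, had -71.9. The largest losses of rank were at p-cup, which ranked 8072 in Pita ΔCP1+2 and 1611 in Pita wt (71.3 points), CG8206 (69.2), near CG14253 (67.5), an intergenic peak on chromosome 4 whose nearest start is that of Cadps (65.0), and lncRNA:CR43838 (59.7). The last is one of the 14 strong peaks.

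The distance to a FLAG summit was set by the rule at 500 bp or more. The paper divided its FLAG peaks by the Pita motif to allow for non-specific FLAG signal, and no such division was made here. At 0.0001 the Pita matrix matched 11.3% of the windows with CP190 and FLAG in both lines. A FLAG summit is therefore a listed peak and need not be a site that tagged Pita binds by its motif. The nearest FLAG summit of either line lay 2769 bp away in the median, and 83 of the 458 were less than 1000 bp from one, while 76 (16.6%) were more than 10 kb away. The closest were CG12104, with a Pita ΔCP1+2 FLAG summit at 500 bp, CG6928, with a Pita wt one at 501 bp, and CG14252, with a Pita ΔCP1+2 one at 504 bp. Just outside the rule stood a peak in a coding exon near asRNA:CR45129, at 498 bp, one near Cf2, at 495 bp, and one near snoRNA:Or-CD16, at 489 bp, each with respect to a Pita ΔCP1+2 FLAG summit. Their fold enrichments of 2.17, 2.18 and 2.12 in Pita ΔCP1+2 and 1.92, 1.50 and 1.94 in Pita wt were like those just inside, which had 1.70, 2.08 and 1.93 in Pita ΔCP1+2 and 1.99, 2.12 and 1.85 in Pita wt.

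The word without FLAG holds for windows around summits. By the boundaries as deposited, 55 of the 458 (12.0%, interval 9.34 to 15.3%) overlapped a FLAG peak, 47 of them one of Pita ΔCP1+2 and 38 one of Pita wt. Among the strong peaks this was true of 1 of 14, that near CG34435, whose nearest FLAG summits lay 776 bp away in Pita ΔCP1+2 and 823 bp away in Pita wt. Near 7 of the 14 another Pita wt CP190 summit lay less than 2000 bp away. At unc-5 it was 1750 bp from the summit, and the nearest FLAG summits were 1734 bp away in Pita ΔCP1+2 and 1786 bp away in Pita wt. At upd2 it was 1947 bp, with FLAG summits 1958 bp away in Pita ΔCP1+2 and 1962 bp away in Pita wt. The part of these neighbouring peaks in the CP190 values was not tested.

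The 458 were also counted at listed genes. Of 17796 annotated genes 101 had one of the 458 within 500 bp of a start, against 1515 with any Pita wt CP190 peak, and 347 had one in a coding exon, against 3760. The counts for the lists that follow are small and are given as a description. None of the 8 Hox genes had one at a start or in a coding exon, against 3 and 8 with any CP190 peak. In the Antennapedia complex from lab to Antp, 2 of 27 CP190 peaks belonged to the 458, one in the coding exon of the pair-rule gene ftz and one in an intron, with Antp as the nearest start. Between Ubx and Abd-B, in the Bithorax complex, 0 of 13 did. Among 24 annotated segmentation genes ftz and inv, an engrailed paralogue, held one in a coding exon, against 15 with any CP190 peak there.

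Of 25 architectural protein genes SMC3, a cohesin subunit, and pzg held one in a coding exon, against 10 with any CP190 peak. None was found in a coding exon of 18 Polycomb group, 21 replication and 22 cell cycle genes, against 10, 7 and 8 with any CP190 peak there, and none within 500 bp of their starts, against 2, 5 and 2. None was found within 500 bp of a start of 290 tRNA and 269 snoRNA genes, against 9 and 24 with any CP190 peak. Of 92 cytoplasmic ribosomal protein genes RpLP0 had one within 500 bp of a start, against 23 with any CP190 peak, and of 73 mitochondrial ones mRpL49 held one in a coding exon, against 9. Of 32 proteasome genes Prosbeta1 and Rpt2, of the core and of the cap, held one in a coding exon, against 12, and the peak in Prosbeta1 also lay within 500 bp of its start. All of these peaks were weak, with Pita wt fold enrichments of 1.75 to 2.07.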

How the data were processed

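FLAG and CP190 ChIP-seq of embryos of the Pita ΔCP1+2 and Pita wt lines was analysed from 4 peak lists. As the authors describe, reads were trimmed with cutadapt and aligned to dm6 with Bowtie version 2, only pairs aligned once were kept, duplicates were removed with Picard and blacklisted regions left out, and peaks were called with MACS version 2 against 1 preimmune control, elsewhere called mouse IgG, and passed to the irreproducible discovery rate (IDR) pipeline at a threshold of 0.05, whose optimal set they deposited. Fold enrichments are the authors' ratios of ChIP to preimmune signal. The −log10 p-values of the peaks were used as deposited. The IDR scores, a −log10 rate with an upper limit of 5 and the ranking values of the sets compared, were also deposited by the authors. Replicates are pooled in each list, so depth and the replicate error of single peaks are unknown here, and all lists share the control. By the study's self-consistency ratio the replicates of the Pita wt lists were less alike than those of the mutant lists.

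Summits extended by 250 bp both ways were compared at an overlap of at least 1 bp. The nearest mutant summit was taken as partner. Features and starts came from Ensembl release 115 of the same assembly, in the order 5′ UTR, 3′ UTR, coding exon, non-coding exon and intron, and a peak is named by the nearest start. Sequence came from the RefSeq copy of the assembly. The 10 words and the Pita matrix of 21 positions, scored under equal base frequencies, were searched on both strands. Peaks on unplaced scaffolds had no window for this.

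Peaks were named by rule: the 10 of highest Pita wt fold enrichment, the next 5 best ranked in the mutant list, the 5 largest gains and losses of percentile, those at listed genes, and those nearest the FLAG limit. The 4 further strong peaks, the 2 with Pita matches at 1e-06 and the limit of 3 were chosen after values were seen. The peaks, words and gene lists were chosen with earlier results of these data known. Alternatives were other windows, overlaps, thresholds, rankings, distances and search widths. Calculations were tested on simulated data. Python 3.11.15, numpy 2.4.6, pandas 2.3.3, scipy 1.17.1 and matplotlib were used. The number of columns of other samples was 0, and coverage tracks were not analysed here. The sequence at 1 weaker peak is not reported here.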

Additional observations from a re-analysis of the deposited data

How the results depend on the processing

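Windows of 100 or 500 bp on each side, deposited boundaries and an overlap of at least 250 bp gave 408 to 502 peaks and moved no other value of the comparisons beyond its interval or, for counts, beyond 1.5 times. No boundaries were repeated in a list, so counting shared boundaries once changed nothing. With the 5000 strongest peaks of each list 298 peaks met the rule, of which 159 were among the 458, with median percentiles of 40.0 in Pita ΔCP1+2 and 52.8 in Pita wt and 15.4% at a start. With a −log10 p of at least 10 in the CP190 lists 11 peaks remained, with median percentiles of 3.17 in Pita ΔCP1+2 and 1.06 in Pita wt, 9.09% at a start, 18.2% in a coding exon, 36.4% each with the BEAF-32 word and the dCTCF core, 18.2% with the Su(Hw) core and 0 with the Pita matrix, and 8 of them were strong, 4 with a dCTCF core. A start counted within 200 bp was met by 5.02% and within 1000 bp by 40.4%. Words counted within 100 bp of the summit gave 18.6% for the BEAF-32 word, 0.87% for the Su(Hw) core, 8.52% for the dCTCF core and 3.71% for the Pita matrix at 0.0001. Limits of 2.5 and 4 in place of 3, chosen after seeing the data as were all alternatives for strong peaks and coding exons, gave 18 and 11 strong peaks, 9 and 6 of them with a dCTCF core. The stricter settings keep fewer peaks by construction.

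No paired analysis was possible because each list pools its replicates and its columns carry no replicate number, and for the same reason no replicate was left out. Depth was not analysed here, and a missing FLAG peak means a site not listed.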
